A study of Mus musculus with 4 samples.

Results

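Meiotic chromosome axis, synapsis and recombination genes were read in RNA of spermatogonia from mouse testis at postnatal day 4. The set holds 32 genes picked by symbol for their known roles, out of 43998 entries in the deposited table. All 32 symbols were found, 31 with an entry of their own and Spata22 in an entry it shares with the olfactory receptor gene Olfr20. The series compares C57BL/6 control mice with mice labelled as mutant for retinoic acid (RA) signalling in the germ cells, with 2 RNA-seq libraries each and with the allele and the Cre driver unnamed in those labels. Both groups were enriched in the same way, with magnetic beads against CD90.2 (THY1), a surface protein of undifferentiated spermatogonia, and the labels do not say whether animals were pooled. The table gives 1 combined value per gene for each genotype, in RPKM (reads per unit of transcript length and of sequencing depth), so no value below has a replicate error and no test between the genotypes was possible.

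Meiosis reduces the chromosome number after homologous chromosomes have paired and exchanged DNA. Sister chromatids are held by cohesin, whose meiotic subunits build the chromosome axis together with SYCP2, SYCP3 and the HORMA-domain proteins. Double-strand breaks made by SPO11 are repaired on the homologue by DMC1 and its partners, some of them as crossovers, while the synaptonemal complex zips the axes together. Spermatocytes carry out these steps later than the age sampled here, and their entry into meiosis depends on retinoic acid and on its target STRA8.

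All 32 genes were detected in both genotypes, and their mutant values lay on both sides of the control values. In 23 of the 32 (71.9%) the mutant value was above control, where 50.3% of 17278 entries and 44.3% of 12187 protein-coding genes that reached 1 RPKM in control or mutant were above. Directions are given for the values as deposited, and 17 of these 23 lay below 0 when mutant values were rescaled to the germ cell identity genes. The difference is given throughout as log2((mutant RPKM + 1) / (control RPKM + 1)), which understates that of low genes, and its median was 0.17 over the members, 0.004 over all entries and -0.06 over protein-coding genes. On this scale Sycp1, Rad21l, Tex15, Meiob, Msh4 and Sycp2 were at least 1.5-fold higher in the mutant, 6 of 32 (18.8%) against 12.6% of all entries and 6.76% of protein-coding genes. Syce3 alone was at least 1.5-fold lower, 1 of 32 (3.13%) against 13.7% of all entries and 15.0% of protein-coding genes. Mnd1 (0.55) and Psmc3ip (-0.56) lay just inside the limits of 0.58 and -0.58 on either side. No member reached 2-fold on this scale, which 4.38% of entries (1.31% of protein-coding genes) did upwards and 4.33% (4.07%) downwards. All 32 reached 1 RPKM, Meiob through its mutant value only.

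Stra8 itself was at 45.2 RPKM in control against 8.60 in mutant (log2 difference -2.27), the direction opposite to that of most members. Low values of genes with a single annotated transcript stepped in whole reads and placed the depth near 56.5 M reads for the control value and 57.3 M reads for the mutant value, if no other scaling factor entered. Germ cell RNA was well represented, with the germ cell helicase gene Ddx4 at 88.6 and 114 RPKM and Dazl, an RNA-binding protein gene of germ cells, at 274 and 353 RPKM in control and mutant. Thy1, the gene of the selected protein, was at 7.11 and 8.61 RPKM, in a list of 10 markers of undifferentiated spermatogonia that went both ways, with 7 higher and 3 lower in the mutant and 2 past 1.5-fold in each direction. Zbtb16 was at 24.4 and 53.7 RPKM (1.11) and Foxo1 at 10.2 and 16.6 RPKM (0.65), while Gfra1, the GDNF receptor gene, was at 35.9 and 14.2 RPKM (-1.28) and Etv5, the most abundant of the list, at 58.6 and 36.9 RPKM (-0.65). Markers of other testis cells were present too, and those of 4 of the 5 cell types were lower in the mutant. All 12 Sertoli markers were lower (summed RPKM 624 and 304 in control and mutant), as were all 6 Leydig markers (741 and 237), 8 of 8 macrophage markers (3605 and 1251) and 4 of 4 peritubular myoid markers that reached 1 RPKM (86.7 and 37.6 over the 5 listed). The most abundant of these were Clu (188 and 81.8 RPKM) of the Sertoli list, Hsd3b1 (266 and 94.7) of the Leydig list, Lyz2 (1339 and 428) of the macrophage list and Acta2 (66.1 in control, log2 difference -1.37) of the myoid list. The 5 endothelial markers, led by Cdh5 (8.62 and 7.38 RPKM), went both ways, with 2 higher and 3 lower, none past 1.5-fold, a median of -0.14 and sums of 21.4 and 20.2 RPKM, and no listed marker of these cell types was at 0 in both genotypes. Of 24 germ cell identity genes, 23 were higher in the mutant, against 50.3% of entries and 44.3% of protein-coding genes. Their median was 0.54 and their summed RPKM 1551 and 2170. The part of cell composition in the members' differences was not tested, and in bulk RNA fewer cells of a type cannot be told apart from less RNA per cell.

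**Figure D1:**
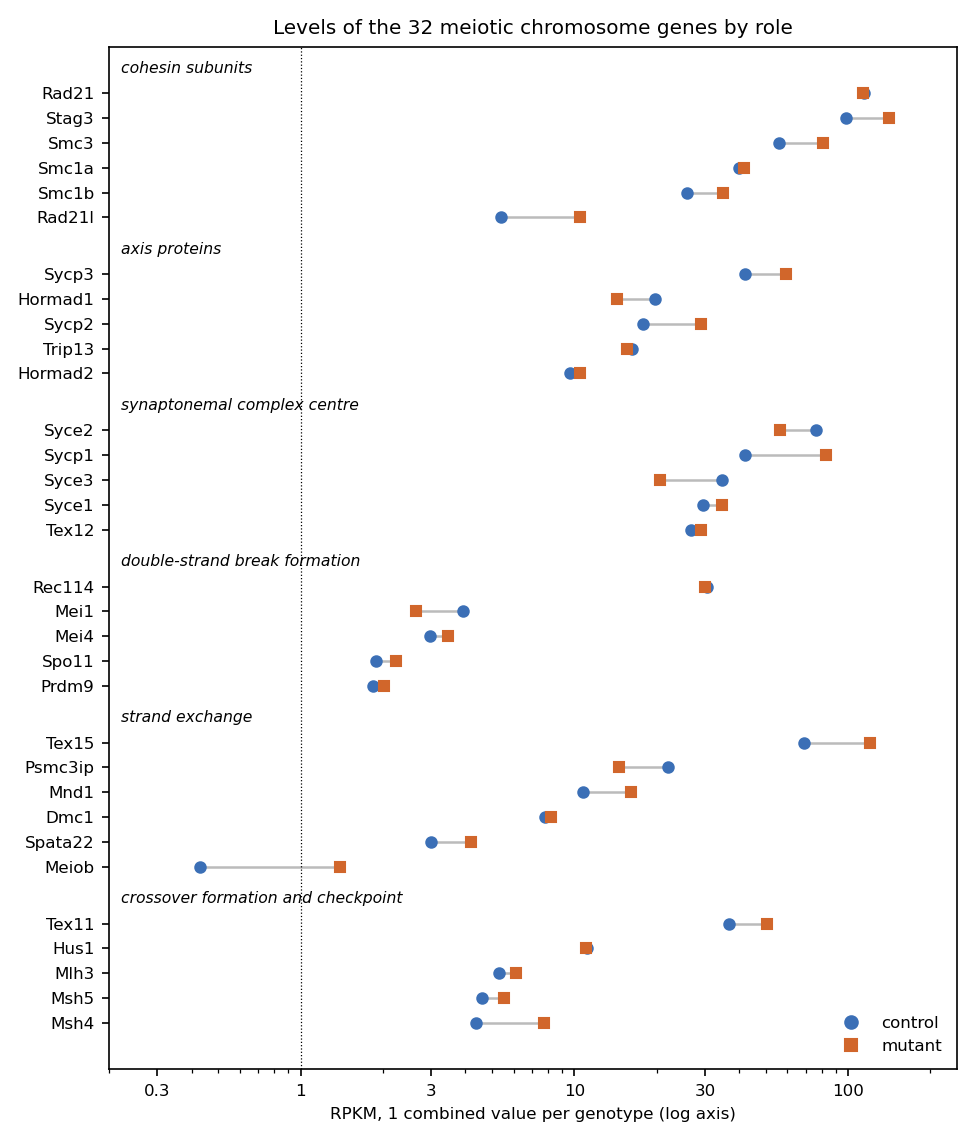
RPKM of the 32 genes in control (circles) and mutant (squares) on a log axis, 1 combined value per genotype, grouped by role and ordered by the control value. Rad21 is highest in control at 114 RPKM, Meiob is lowest at 0.428 RPKM, and the widest gaps with a higher mutant value are those of Meiob, Sycp1 and Rad21l.

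Cohesin subunits had the highest summed level of the 6 roles, with 5 of 6 higher in the mutant, a median difference of 0.47 and a summed RPKM of 340 and 423. The 3 meiotic subunits differed more than their general counterparts SMC1A and RAD21. Rad21l, which encodes a meiotic kleisin that closes the cohesin ring, was at 5.41 RPKM in control against 10.5 in mutant, or 1.94-fold higher (95% interval from counting error alone 1.73 to 2.18). Its general paralogue Rad21, on chromosome 15 from 51962605 to 51991760, was level at 114 and 113 RPKM, so the ratio of Rad21l to Rad21 went from 0.047 to 0.092. Rad21l lies on chromosome 2 from 151645404 to 151668533 in GRCm38, on the minus strand with 13 exons.

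Smc1b, the meiotic SMC1 gene, was at 25.9 and 35.1 RPKM and its X-linked general paralogue Smc1a at 40.0 and 41.8 RPKM. Per unit length Smc1b thus stood at 0.648 of Smc1a in control and 0.839 in mutant. Stag3, which encodes the meiotic STAG subunit, was at 98.1 and 141 RPKM (chromosome 5, 138280240 to 138312393). The mitotic STAG genes, chosen after the values were seen, were closer between the genotypes, Stag1 with a log2 difference of 0.09 from 88.9 RPKM in control and Stag2 with 0.26 from 36.8 RPKM. Smc3 departed from this division. It encodes the SMC subunit common to mitotic and meiotic cohesin, and was at 56.1 and 81.2 RPKM with a log2 difference of 0.53, next to 0.51 for Stag3. Rec8, the other meiotic kleisin gene, was at 9.68 and 8.14 RPKM (-0.22), opposite to Rad21l, and Rad21l changed from 0.559 to 1.29 times the level of Rec8.

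Among the axis genes Sycp2 and Sycp3 were higher and Hormad1 was lower. Sycp2, a core of the lateral element, was at 17.8 RPKM in control against 29.0 in mutant (1.63-fold, counting interval 1.57 to 1.68), from chromosome 2 between 178345293 and 178407685 with 44 exons. Its partner Sycp3 was at 41.9 and 59.5 RPKM (log2 difference 0.50). In GENCODE M21, 52.2% of the exonic bases of Sycp3 overlap Chpt1 on the other strand, which was at 27.3 and 23.3 RPKM, and no source used here says whether counting used strand, so the Sycp3 value is uncertain. Hormad1, needed for break formation and for checking synapsis, was at 19.7 and 14.3 RPKM (-0.43), or 1.37-fold lower, while its paralogue Hormad2 was at 9.64 and 10.5 RPKM (0.11). Trip13, the ATPase that removes the HORMADs from synapsed axes, was nearly level at 16.2 and 15.5 RPKM.

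The centre of the synaptonemal complex held both the highest and the lowest difference among the members. Sycp1, which encodes the transverse filament that bridges the axes, was at 42.1 RPKM in control against 83.0 in mutant, a log2 difference of 0.96 (1.97-fold, counting interval 1.92 to 2.03). It lies on chromosome 3 from 102818499 to 102936100, on the minus strand with 33 exons. Syce3, a small central element protein that is loaded onto SYCP1, was at 34.7 and 20.6 RPKM, a log2 difference of -0.72 (1.68-fold lower, counting interval 1.46 to 1.94). It lies on chromosome 15 from 89390174 to 89410503 with 3 exons, and its transcript of 480 nt is the shortest of the 32. The level of Syce3 was 0.824 of that of Sycp1 in control and 0.248 in mutant.

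The remaining central element genes lay between these. Syce2 was at 76.6 and 56.3 RPKM (-0.44, or 1.36-fold lower) and Tex12, whose protein assembles with SYCE2, at 26.7 and 29.1 RPKM (0.12). The ratio of Syce2 to Tex12 was 2.87 in control and 1.93 in mutant. The table gives Syce2 and Gcdh, a gene on the other strand, the same interval on chromosome 8 (84872111 to 84893921), beyond the GENCODE end of Syce2 at 84888221. Gcdh was at 14.0 and 7.82 RPKM (-0.76), lower in the mutant as Syce2 was, so the Syce2 value and this ratio are uncertain. Syce1, the binding partner of SYCE3 and of SIX6OS1, was at 29.5 and 34.7 RPKM (0.23). The group summed to 210 RPKM in control against 224 in mutant, so its total hid opposite differences.

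Genes of double-strand break formation were mostly low, and none reached 1.5-fold. Spo11, the topoisomerase-like enzyme that cuts the DNA, was at 1.89 and 2.22 RPKM, estimated as 160 control reads (95% Poisson interval 136 to 187) and 191 mutant reads (165 to 220). Prdm9, the histone methyltransferase that places the breaks, was at 1.85 and 2.02 RPKM. The counting intervals of both ratios included 1, so no difference was detectable at this depth. Mei4, which activates SPO11 together with REC114, was at 2.97 and 3.46 RPKM, and Mei1, also needed for breaks, at 3.91 and 2.63 RPKM (-0.44, or 1.49-fold lower with a counting interval of 1.34 to 1.65). Rec114 stood well above the others of this group at 30.6 and 29.9 RPKM, but 26.9% of its exonic bases overlap Nptn on the other strand, a gene at 209 and 216 RPKM. The group summed to 41.2 and 40.2 RPKM.

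Of 6 strand exchange genes, 5 were higher in the mutant, and the median was 0.46. Tex15, a factor of meiotic recombination and of transposon silencing in germ cells, was at 69.2 RPKM in control against 120 in mutant (0.79), from chromosome 8 between 33516738 and 33585582. Dmc1, the recombinase of meiosis, was nearly level at 7.82 and 8.21 RPKM. Mnd1 and Psmc3ip encode the partners of the HOP2-MND1 dimer that helps DMC1, and they differed in opposite directions. Mnd1 was at 10.7 and 16.1 RPKM (0.55) and Psmc3ip, the HOP2 gene, at 21.9 and 14.5 RPKM (-0.56). The ratio of Mnd1 to Psmc3ip was 0.489 in control and 1.11 in mutant. Of the exonic bases of Psmc3ip, 21.2% overlap Mlx on the other strand, which was at 36.1 and 27.3 RPKM.

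Meiob, whose protein binds single-stranded DNA with SPATA22, had the largest ratio and the lowest level. It was at 0.428 RPKM in control, about 38 reads (27 to 52), and at 1.40 RPKM in mutant, about 125 reads (104 to 149). The ratio was 3.26 (counting interval 2.25 to 4.83) and the log2 difference 0.75, which the pseudocount pulls towards 0 most strongly at such levels. The entry holding Spata22 was at 2.99 and 4.20 RPKM (0.38).

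Of 5 crossover genes, 4 were higher in the mutant, and Msh4 was the 1 past 1.5-fold. Msh4 and Msh5 together encode a MutS dimer that stabilizes recombination intermediates. Msh4 was at 4.38 RPKM in control against 7.76 in mutant (0.70; chromosome 3, 153857149 to 153906138), and Msh5 at 4.62 and 5.54 RPKM (0.22), so near-equal control values parted to a ratio of 1.40 in the mutant. The X-linked Tex11, needed for synapsis and crossovers in males, was at 36.7 and 50.4 RPKM (0.45). Mlh3, of the MutL dimer that resolves crossovers, was at 5.32 and 6.11 RPKM, and the checkpoint clamp gene Hus1, which mitotic cells use as well, was level at 11.1 RPKM in both.

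**Figure D2:**
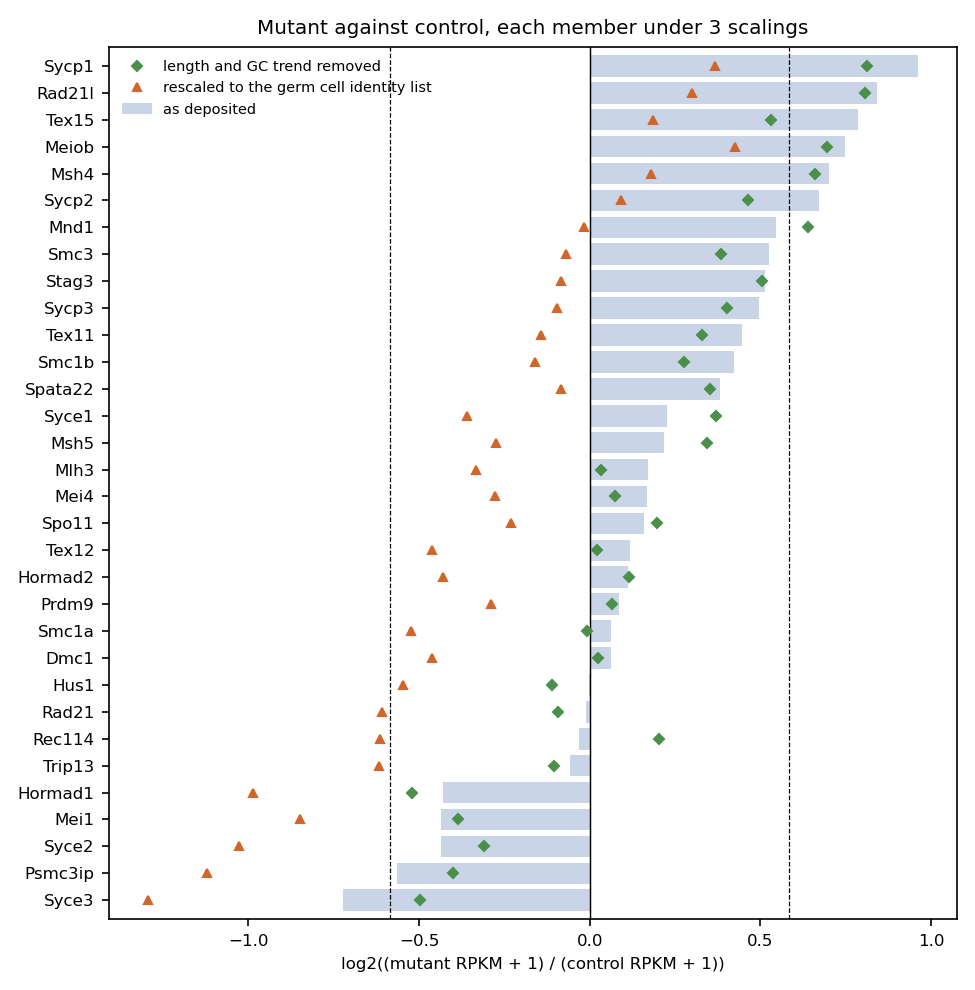
Bars give the log2 difference, mutant against control, for each of the 32 genes as deposited, ordered by size; diamonds give it after removal of the trend over transcript length and GC content and triangles after rescaling to the germ cell identity list. Dashed lines mark 1.5-fold; Sycp1 is at 0.96, 0.81 and 0.37 under these settings, and Syce3 at -0.72, -0.50 and -1.30.

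By counting error alone, the ratio of mutant to control excluded 1 for 24 members, 19 above it and 5 below (Hormad1, Syce2, Syce3, Mei1 and Psmc3ip). These intervals were computed for the members only, so the share over all genes is unknown. At this depth even small differences excluded 1, as for Smc1a at 1.05-fold (1.02 to 1.07). Reads per gene were estimated from the longest coding transcript, and 30 members have more than 1 annotated transcript, so these read numbers are approximate. They say nothing of the spread between animals or libraries. Rescaling the mutant values so that the germ cell identity genes had a median of 0 divided them by 1.52 and shifted the median of all entries to -0.53. The members' median was then -0.29. With all mutant values divided by the same factor, its place above the median of all entries was largely kept by construction. Above 0 were 16.1% of the members that passed the filter, 15.0% of all entries and 974 of 11935 protein-coding genes. Of the 23 higher members, 17 turned below 0 and Meiob no longer passed the filter. Sycp1, Rad21l, Tex15, Msh4 and Sycp2 stayed above 0, between 0.09 and 0.37, but none was past 1.5-fold.

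Most members had a low GC content, and the differences of the 32 varied with GC content. Of the 32, 21 fell in the quartile of protein-coding genes with the lowest transcript GC content, 32.2% to 45.4%. In that quartile the median difference was 0.38 for the members and 0.07 for 3047 protein-coding genes, and all 6 members past 1.5-fold upwards were in it. Of its protein-coding genes, 9.48% were at least 1.5-fold higher. Above 0 were 17 of its 21 members and 57.0% of its protein-coding genes. In the quartile with the highest GC content the protein-coding median was -0.20. Across the 32 members Pearson's r between GC content and the log2 difference was -0.53 and Spearman's rho -0.50, as a description of genes measured in the same libraries. Hormad1 departed from this order, with a GC content of 35.8% and a difference of -0.43. Transcript length gave a rho of 0.23 over the members, whose 13 shortest, under 1938 nt, had a median of 0.16 where 3042 protein-coding genes of that length had -0.23.

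**Figure D3:**
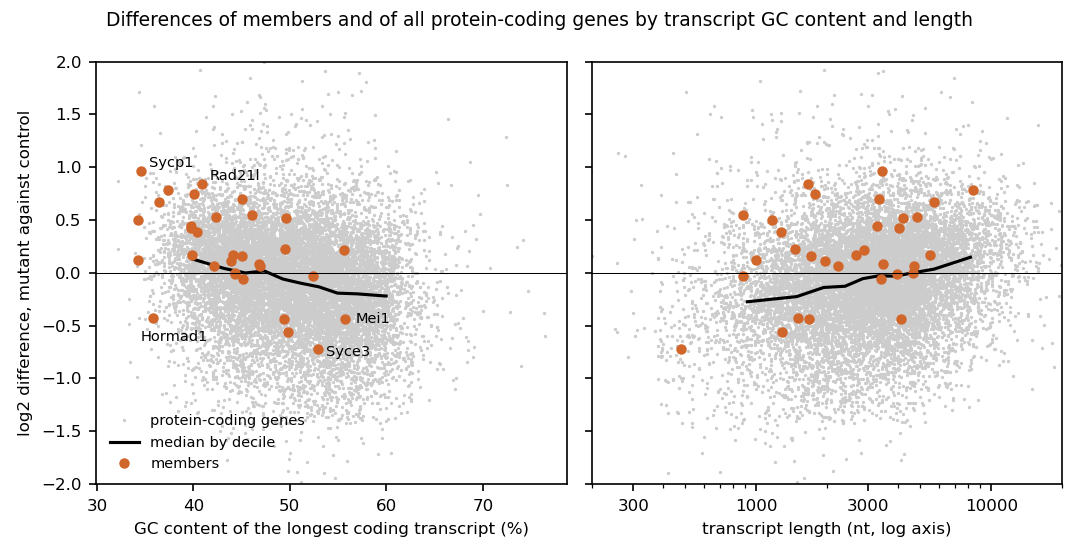
Log2 difference, mutant against control, against the GC content (left) and the length on a log axis (right) of the longest coding transcript; grey points are protein-coding genes (values past 2 in either direction are not drawn), the line is their median by decile, and orange points are the members. The protein-coding median declines with GC content and climbs with length, and most members lie at low GC content and above the line.

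With the trend over length and GC content removed, 23 of 32 members (71.9%) were above 0, against 51.5% of entries and 5637 of 12187 protein-coding genes. Rec114 joined and Smc1a left, and the members' median was 0.20. Sycp1 (0.81), Rad21l (0.81), Meiob (0.70), Msh4 (0.66) and Mnd1 (0.64) were then past 1.5-fold, while Tex15 (0.53), Sycp2 (0.46) and Syce3 (-0.50) were not. These were 5 of 32 (15.6%), where 12.6% of entries were 1.5-fold higher. The share of protein-coding genes past 1.5-fold after trend removal was not counted, and as deposited it was 6.76%. Hormad1 (-0.52), Psmc3ip (-0.40), Mei1 (-0.39) and Syce2 (-0.31) remained below 0.

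Promoters were read for sequence features that the members share. RefSeq windows from 250 bases before to 50 bases after a transcript start were in the reference table for 27 members, and not for Spo11, Tex15, Tex11, Meiob and Rad21. Windows are shown for the genes with the highest and lowest difference, Sycp1 and Syce3, for Rad21l, and for Sycp3, which was added after the search because it holds an E2F-type match. They come from GRCm38.p6, 5′ to 3′ along the gene, and capitals mark CACGTG (the E-box of MAX and MGA), GCGGGAA (E2F type), CCTCAG (core of the STRA8 motif) and AGGTCA (half-site of retinoic acid receptors) on either strand. The windows are chr3:102936051-102936350 (minus strand) for Sycp1, chr15:89410454-89410753 (minus) for Syce3, chr2:151668484-151668783 (minus) for Rad21l and chr10:88459337-88459636 (plus) for Sycp3.
Sycp1: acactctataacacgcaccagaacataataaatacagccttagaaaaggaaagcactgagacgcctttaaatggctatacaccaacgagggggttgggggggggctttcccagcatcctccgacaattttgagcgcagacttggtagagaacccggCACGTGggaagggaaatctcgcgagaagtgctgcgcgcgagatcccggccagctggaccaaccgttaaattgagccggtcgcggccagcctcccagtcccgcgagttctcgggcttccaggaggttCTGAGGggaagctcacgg
Syce3: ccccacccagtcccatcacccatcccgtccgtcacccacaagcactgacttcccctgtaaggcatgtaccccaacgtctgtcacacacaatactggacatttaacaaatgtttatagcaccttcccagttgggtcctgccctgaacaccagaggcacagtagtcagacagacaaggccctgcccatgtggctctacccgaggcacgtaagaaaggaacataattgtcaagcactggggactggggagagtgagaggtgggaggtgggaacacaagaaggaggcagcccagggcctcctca
Rad21l: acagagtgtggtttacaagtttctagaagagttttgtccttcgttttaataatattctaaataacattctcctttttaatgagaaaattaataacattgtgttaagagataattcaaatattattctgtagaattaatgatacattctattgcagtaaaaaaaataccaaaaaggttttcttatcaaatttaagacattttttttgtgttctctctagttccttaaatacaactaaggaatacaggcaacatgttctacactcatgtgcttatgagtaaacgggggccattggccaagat
Sycp3: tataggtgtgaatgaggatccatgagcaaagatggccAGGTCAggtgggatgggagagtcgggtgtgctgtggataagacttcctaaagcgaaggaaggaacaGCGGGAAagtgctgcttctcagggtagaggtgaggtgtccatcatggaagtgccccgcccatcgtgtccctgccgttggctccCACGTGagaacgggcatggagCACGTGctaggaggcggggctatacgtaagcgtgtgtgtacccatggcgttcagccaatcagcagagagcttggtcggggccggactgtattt

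The Sycp1 window holds CACGTG 94 bases upstream of the start and CCTCAG, on the other strand, 32 bases downstream. In the Sycp3 window AGGTCA begins 213, GCGGGAA 147 and CACGTG 64 and 43 bases upstream, and no matches overlap. The letters of these motifs are in neither the Syce3 nor the Rad21l window, which hold 5 and 2 CpG dinucleotides against 21 for Sycp1 and 15 for Sycp3.

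Over the 27 windows, GCGGGAA or its complement was found in 10 (37.0%), those of Sycp3, Smc1b, Stag3, Hormad1, Tex12, Msh5, Prdm9, Rec114, Spata22 and Smc1a. It was in 1511 of all 32851 windows of the table (4.6%) and in 1177 of the 11765 windows with a CpG observed-to-expected ratio of 0.6 or more, a class that holds 18 member windows, these 10 among them. CACGTG was found in 6 member windows (22.2%, against 7.15% of all), CCTCAG in 8 (29.6%, against 26.8%) and AGGTCA in 4 (14.8%, against 16.3%). Within the class of higher CpG ratio, CACGTG was in 6 of the 18 member windows (33.3%, against 11.3% of that class). CCTCAG was in 7 of them (38.9%, against 25.1%) and AGGTCA in 3 (16.7%, against 9.46%). The E2F-type match was present in 8 of 19 windows of members above 0 and in 2 of 8 of members below 0. AGGTCA was in the windows of Sycp3, above 0, and of Hormad1, Mei1 and Psmc3ip, below 0. The windows of Mei1, Rec114 and Msh4 lie 12480, 2405 and 1247 bases from the start of the gene in GENCODE M21, and are counted here as listed. A match in these windows is a description of the sequence, and binding was not measured.

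Other meiosis genes were read from a list of 37, of which 32 were matched by a current or older symbol and 27 reached 1 RPKM. Majin, below 1 RPKM, was matched only as Gm17727 in an entry shared with other genes, so its match is uncertain. Of the 27, 21 were higher in the mutant, 8 of them by 1.5-fold or more, and Stra8 alone was lower by that much. The median was 0.38. Over all entries, 50.3% were higher, 12.6% were higher by 1.5-fold or more, and 13.7% were lower by that much. Among protein-coding genes these shares were 44.3%, 6.76% and 15.0%. The list was drawn up with earlier results of these data known. Six6os1 (listed as 4930447C04Rik), which encodes a central element protein that binds SYCE1, was at 38.5 and 90.6 RPKM (1.21), a larger difference than that of Sycp1. Hfm1, a crossover helicase gene, was at 2.21 and 5.80 RPKM (1.08), and Shoc1 (listed as AI481877), which acts with MSH4 and MSH5 in crossing over, at 4.80 and 8.09 RPKM (0.65). Zcwpw1, a reader of the histone marks set by PRDM9, was at 50.2 and 80.4 RPKM (0.67).

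The remaining genes of this list past 1.5-fold act in germ cell gene expression or division. Cpeb1, a regulator of translation that acts on synaptonemal complex transcripts, was at 13.4 and 33.3 RPKM (1.25), Brdt, a testis bromodomain gene, at 5.90 and 11.6 RPKM (0.87), Boll, of the DAZ family, at 25.3 and 41.0 RPKM (0.67) and Tex14, of germ cell bridges, at 35.2 and 54.9 RPKM (0.63). The highest levels of the list were those of Mael (159 and 219 RPKM) and Fkbp6 (161 and 192 RPKM), both also in the germ cell identity list. Meiosin (listed as Gm4969), the partner of STRA8 in switching on meiotic genes, was at 1.59 and 2.72 RPKM (0.52), and Iho1 (listed as Ccdc36), which works with REC114 and MEI4, at 5.08 and 4.20 RPKM (-0.23). After rescaling to the germ cell identity list, Six6os1 (0.62), Cpeb1 (0.67) and Hfm1 (0.59) were still past 1.5-fold.

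Homologous recombination genes that mitotic cells also use lay closer to 0 than the members. Of 28, 16 (57.1%) were higher in the mutant, against 50.3% of entries and 44.3% of protein-coding genes, 12 were lower, and the median was 0.06. Rad52, which anneals single strands, was the 1 past 1.5-fold at 9.15 and 20.5 RPKM (1.08). Rpa2, of the single-strand binding complex, was at 103 and 90.2 RPKM, Exo1, a nuclease of end resection, at 73.8 and 73.1 RPKM, and Brca2, which loads the recombinases, at 38.1 and 50.9 RPKM. The germ cell identity genes lay higher than the members, at a median of 0.54. Of the 24, 11 were at least 1.5-fold higher, against 12.6% of entries and 6.76% of protein-coding genes. With 1 value per genotype the differences between these lists could not be tested.

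**Figure D4:**
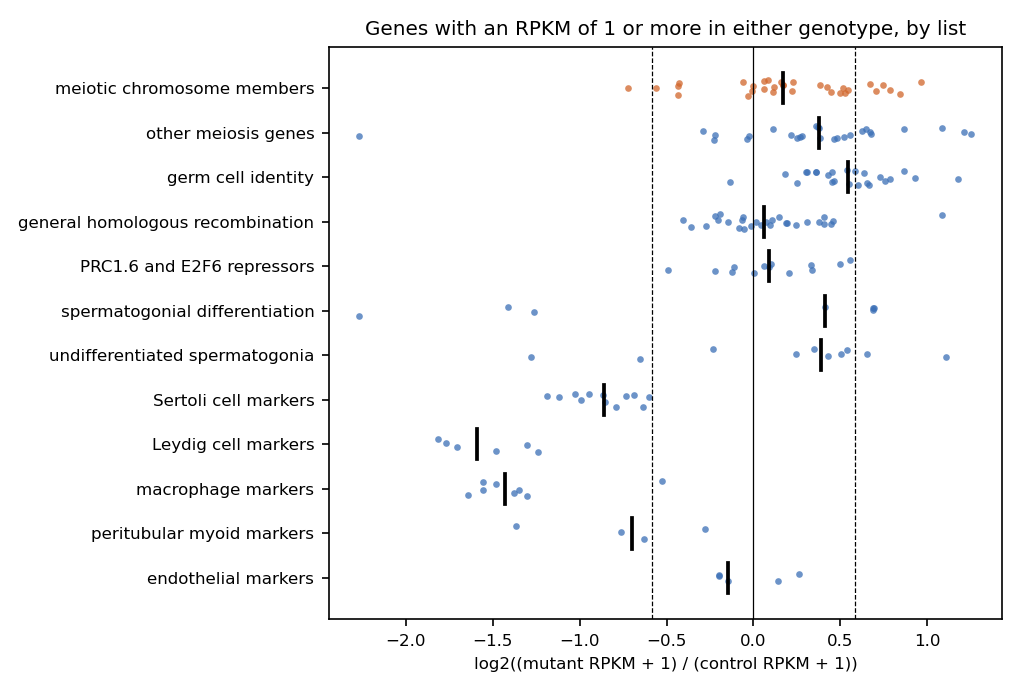
Log2 difference of each gene that reached 1 RPKM in control or mutant, by list, with the median as a black bar and 1.5-fold as dashed lines. The members (median 0.17) lie between the general homologous recombination genes (0.06) and the germ cell identity genes (0.54), and Sertoli (-0.86), Leydig (-1.59) and macrophage (-1.43) markers lie below 0.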

How the data were processed

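RNA-seq was deposited for 4 libraries of THY1+ spermatogonia, 2 control and 2 mutant. The authors' RPKM values come, per the file headers, as 1 column for both libraries of a genotype; no source used here says how they were combined or names the counting program and annotation. TopHat2 2.0.11 and GRCm38 are named in the submitters' processing notes. With no column per library, no test, SD or leave-one-out value was possible. The members and lists were chosen with earlier results of these data known.

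Entries with 1 RPKM or more in either genotype were compared as log2 values with a pseudocount of 1, and a gene was counted past 1.5-fold on that scale. The table's starts are 0-based and were raised by 1. All 32 members are named by role. Of the other meiosis genes, those past 1.5-fold and the 3 most abundant are named, and of each comparison list the most abundant; Rec8, Meiosin, Iho1 and the further genes named from these lists were chosen after their values were seen. GENCODE M21 gave exons, length and GC content of the longest coding transcript. The trend was a polynomial in log length and GC content over protein-coding genes. Depth came from low values of genes with 1 transcript of 1 kb or more: 84.1% of 1523 control and 90.7% of 1511 mutant low values (10 reads at most) were whole to within 0.1 read, after an offset of 210 nt was taken off the length. Poisson and exact binomial intervals (95%) cover counting error only. Trend and depth steps were tested on simulated data. Python 3.11.15, scipy 1.17.1 and pandas 2.3.3 were used. Alternatives were pseudocounts of 0.1 and 0.5, no filter, a filter of 5 RPKM, quantile normalization, rescaling to germ cell identity genes, trend removal and, added after seeing the data, leaving out members with shared exons.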

Additional observations from a re-analysis of the deposited data

How the results depend on the processing

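No paired analysis was possible because each genotype has 1 combined value, and leaving out a replicate was not possible for the same reason. The number of members above 0 was 18 of 26 to 25 of 32 under pseudocounts of 0.1 and 0.5, both other filters, quantile normalization and trend removal, and 20 of 27 without the members that share exons or an entry. Under the same pseudocounts, the filter of 5 RPKM, quantile normalization and trend removal, 46.6% (filter of 5 RPKM) to 51.5% (trend removal) of entries were above 0. With no filter the share was 36.6%, but 13903 of the 43998 entries were 0 in both genotypes and could not be above 0. After rescaling to the germ cell identity list, 5 of 31 members (16.1%) were above 0. This compares with 15.0% of all entries and with 974 of 11935 protein-coding genes. Of the members, 0 were 1.5-fold higher and 8 (25.8%) 1.5-fold lower, against 3.95% and 45.3% of all entries. The members' median reversed to -0.29. The factor was chosen to give the 24 germ cell identity genes a median of 0. That 12 of these 24 were then above 0, against 23 as deposited, was therefore fixed by construction and is not a result. Stk31, next to that median, was at -0.0087 for the same reason. The rescaling lowers all mutant values by construction, and which scaling fits these samples was not tested. The number 1.5-fold lower was 2 with a pseudocount of 0.1, where Psmc3ip joined Syce3, and 0 after removing the length and GC trend. Quantile normalization turned Prdm9, Rec114, Rad21 and Hus1, all near 0, to the other side, and trend removal Rec114 and Smc1a. A floor of 3 reads in a 2-kb transcript corresponds to 0.0297 (control) and 0.0292 RPKM (mutant), below all member values.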

Other observations

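Repressors that hold germline genes silent in other cells were read as a list of 13, the PRC1.6 complex with E2F6 and its partners. The list was read because CACGTG and GCGGGAA, among the motifs searched in the member promoters, are DNA motifs of this group. None of the 13 was past 1.5-fold, which 12.6% of entries (6.76% of protein-coding genes) were upwards and 13.7% (15.0%) downwards. The median was 0.09, with 9 of 13 above 0 against 50.3% of entries and 44.3% of protein-coding genes. Mga, which binds the E-box with MAX, was at 71.0 and 101 RPKM in control and mutant (0.50), Pcgf6, of the same complex, at 22.4 and 33.4 RPKM (0.56), and E2f6 at 28.3 and 35.8 RPKM (0.33). Max was at 21.5 and 23.2 RPKM, and Yaf2 had the lowest difference at 17.0 and 11.8 RPKM (-0.49). Cbx3, a heterochromatin protein gene, had the highest level, at 158 and 182 RPKM. After rescaling to the germ cell identity list the median of the 13 was -0.47, against -0.53 for all entries and -0.59 for protein-coding genes.

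Spermatogonial differentiation genes split. Stra8 (-2.27), Kit (-1.41) and Ccnd2 (-1.26) were lower in the mutant, and Sohlh1, Sohlh2 and Dmrtb1 were each 0.69 higher.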
